A study of Mus musculus with 9 samples.

Results

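The genes described here are 10 imprinted growth genes of the mouse: H19, Meg3, Dlk1, Peg3, Usp29, Mest, Plagl1, Grb10, Peg10 and Zim1. They were chosen by name, with earlier results of these data known, and all 10 are among the 19769 genes of the deposited RNA table. RNA came from MEFs, primary mouse embryonic fibroblasts homozygous for a Myc-Egfp allele, all treated with MG-132 to block the proteasome (20 µM, 6 h) and then sorted by GFP into low-MYC and high-MYC cells and seeded overnight. There were 4 RNA libraries, 2 technical replicates per group, and a p-value therefore measures only the spread between these libraries. TACh-seq, which sequences the DNA that a nuclease releases from accessible chromatin, covered 4 samples, with siRNA at 100 nM for 48 h in each: wild-type MEFs, for which the methods give a non-target siRNA, and MEFs with a Fubp1 knockout and Fubp2 siRNA. All 4 samples name a single read table that does not say which library a read came from, so these groups are not compared here. The table's own name refers to a wild-type sample, and whether it holds all 4 samples or that one only is not known.

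An imprinted gene is transcribed mainly or only from the copy inherited from the mother or only from the copy inherited from the father, and the choice is kept by DNA methylation at an imprinting control region that was set in the germ cells. Many such genes act on the growth of the embryo and placenta. Paternally expressed genes such as Igf2, Dlk1, Peg3, Mest and Peg10 often promote growth, and maternally expressed genes such as H19 and Grb10 often restrain it. Neither measurement used here separates the parental copies, so allele of origin is not part of the values below.

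The sequences below are those at which these genes are known to be controlled or that their transcripts carry, and they are shown so that the levels and the chromatin reads can be placed on them. All are from the mm10 (GRCm38) genome. The first set are matches to a core of the CTCF motif, searched as CCGCGNGGNGGCAG on both strands within 10 kb of each gene start; CTCF at the control region upstream of H19 insulates Igf2 from the enhancers it shares with H19. Capitals mark the core.

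H19 upstream site at chr7:142580305-142580326, minus strand: gatgCCGCGTGGTGGCAGtaca
H19 upstream site at chr7:142580760-142580781, minus strand: gctaCCGCGCGGTGGCAGcata
H19 upstream site at chr7:142582030-142582051, minus strand: gttgCCGCGTGGTGGCAGcaaa

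These 3 matches lay 2166, 2621 and 3891 bases upstream of the H19 start, and the other 9 genes had no match in their windows. The same letters were present in 54 of 19753 windows of 20 kb around gene starts (0.273%), and 1 window held 3 or more. The search took these exact letters only, so CTCF sites with other letters were not counted. A window without a match can still hold such sites, and the shares describe the letters and not CTCF binding. None of the 300-base RefSeq promoters of these genes held the core, which was found in 0.0365% of 32851 promoters.

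The second set are matches to a core of the YY1 motif, searched as AANATGGCG on both strands, in the first 4 kb of Peg3. YY1 is a zinc-finger factor that binds repeated sites in the control region of the Peg3 domain. Capitals mark the core, and 4 of the 10 matches that had chromatin reads are printed.

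Peg3 site at chr7:6728447-6728463, plus strand: ggcaAAGATGGCGccaa
Peg3 site at chr7:6728398-6728414, plus strand: attcAAGATGGCGtctg
Peg3 site at chr7:6728735-6728751, plus strand: agcaAAGATGGCGtcag
Peg3 site at chr7:6727297-6727313, plus strand: aacaAAGATGGCGccaa

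All 10 of these matches had the same 9 letters, lay on the plus strand, opposite to Peg3, and fell outside annotated exons of Peg3. The 20 kb window around the Peg3 start held 12 matches in all, and 3 of 19753 windows around gene starts held 12 or more. Those windows can overlap, since the Peg3 and Usp29 starts lie 147 bases apart. At least 1 match was present in 27.0% of the windows, so a single match, as in the windows of Grb10 and Zim1, was common.

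The third set are mature miRNAs that RefSeq places inside these genes on the same strand. There were 9 in 4 of the genes (H19, Meg3, Mest and Usp29), with 9 different seeds. Capitals mark the seed, bases 2 to 8, which pairs with target mRNAs.

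miR-675-5p of H19, chr7:142577112-142577133, minus strand: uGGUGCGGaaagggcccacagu
miR-675-3p of H19, chr7:142577078-142577099, minus strand: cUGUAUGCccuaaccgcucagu
miR-335-5p of Mest, chr6:30741314-30741336, plus strand: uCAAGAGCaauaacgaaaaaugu
miR-335-3p of Mest, chr6:30741354-30741375, plus strand: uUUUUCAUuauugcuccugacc

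The miR-675 pair lies in an exon of H19 and the miR-335 pair in no annotated exon of Mest. The RNA libraries were made from mRNA and did not measure these miRNAs, so the values that follow are those of the host transcripts.

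The deposited values are spike-in-normalized FPK, fragments per kilobase of transcript divided by the spike-in score of the library, and are therefore set against cell number. Because FPK is per length, levels can be compared between genes. The levels of the 10 genes spanned more than 4 orders of magnitude within each library. H19 was far above the rest, Grb10, Peg10, Peg3 and Dlk1 formed a middle group, Meg3 came next, Plagl1, Mest and Zim1 were low, and Usp29 was near the lower end of the table.

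**Figure D1:**
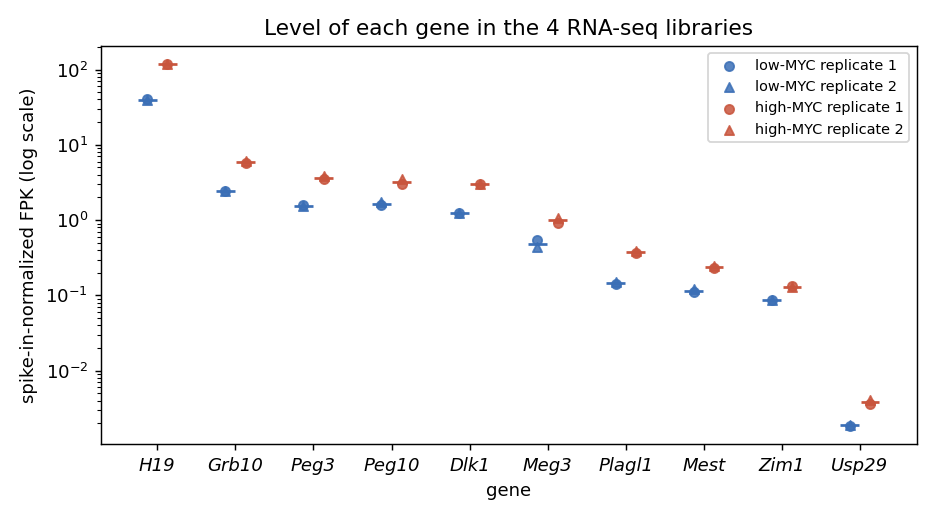
Spike-in-normalized FPK (log axis) of each gene in the 2 low-MYC (blue) and 2 high-MYC (red) libraries. Circles are replicate 1, triangles replicate 2 and bars the group means. H19 lies highest, at 39.1 to 118 normalized FPK.

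H19 (chr7:142575529-142578143, minus strand) is a long noncoding RNA that is abundant in embryonic mesoderm and silenced in most tissues after birth. Its normalized FPK was 40.8 and 39.1 in the low-MYC libraries and 117 and 118 in the high-MYC libraries. Short noncoding transcripts are annotated on the other strand over H19 exons, and reads there cannot be assigned with certainty. H19 ranked 157 of 19769 genes by its mean over the 4 libraries. Its mean was 16.3-fold that of Grb10, the next gene, in low-MYC cells and 19.7-fold in high-MYC cells.

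Grb10 (chr11:11930508-12038683, minus strand) encodes an adaptor protein that restrains insulin and IGF receptor signalling. The normalized FPK of Grb10 was 2.44 and 2.47 in the low-MYC libraries and 5.75 and 6.16 in the high-MYC libraries. Grb10 was second of the 10 genes in both groups.

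Peg10 (chr6:4747306-4760517, plus strand) is derived from a retrotransposon and is needed for the placenta. Peg10 had a normalized FPK of 1.60 and 1.72 in the low-MYC libraries and 3.05 and 3.46 in the high-MYC libraries. Peg3 (chr7:6703892-6730431, minus strand) encodes a large zinc-finger protein. Peg3 had a normalized FPK of 1.56 and 1.54 in the low-MYC libraries and 3.47 and 3.80 in the high-MYC libraries. The order of Peg10 and Peg3 differed between the groups. Peg10 over Peg3, a ratio within a library that no scaling can alter, was 1.02 and 1.11 in low-MYC and 0.878 and 0.912 in high-MYC libraries.

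Dlk1 (chr12:109452823-109463336, plus strand) encodes a membrane protein of the Notch ligand type that holds back adipocyte differentiation. The normalized FPK of Dlk1 was 1.26 and 1.25 in the low-MYC libraries and 2.98 and 3.06 in the high-MYC libraries. In high-MYC cells its values overlapped those of Peg10, the only overlap between neighbours in the order of levels in either group. Meg3 (chr12:109541001-109571726, plus strand) is the maternally expressed noncoding RNA of the same domain. A noncoding gene on the other strand, Gm26906, overlaps it in exons, and reads there cannot be assigned with certainty. Meg3 had a normalized FPK of 0.539 and 0.437 in the low-MYC libraries and 0.920 and 1.08 in the high-MYC libraries, so that its replicates lay further apart than those of Dlk1. Meg3 over Dlk1 was 0.429 and 0.350 in low-MYC and 0.309 and 0.351 in high-MYC libraries, and these ranges overlapped.

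Plagl1 (chr10:13060504-13131694, plus strand) encodes a zinc-finger transcription factor that acts on other imprinted genes. A noncoding gene on the other strand, Gm27741, overlaps it in exons, and reads there cannot be assigned with certainty. Plagl1 had a normalized FPK of 0.144 and 0.150 in the low-MYC libraries and 0.371 and 0.392 in the high-MYC libraries. Mest (chr6:30723547-30748465, plus strand) encodes a protein of the alpha/beta hydrolase fold and is widely expressed in embryonic mesoderm. Its normalized FPK was 0.111 and 0.121 in the low-MYC libraries and 0.229 and 0.242 in the high-MYC libraries. An exon of Mest overlaps an exon of Copg2 on the other strand. The library kit keeps strand, but the sources used here do not say whether strand was used in the quantification, so reads of the overlap cannot be assigned with certainty. Mest ranked 10561 of 19769 genes.

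Zim1 (chr7:6671269-6696450, minus strand) is a maternally expressed zinc-finger gene next to Peg3. Its normalized FPK was 0.0866 and 0.0881 in the low-MYC libraries and 0.132 and 0.128 in the high-MYC libraries. Zim1 over Peg3 was 0.0553 and 0.0570 in low-MYC and 0.0380 and 0.0336 in high-MYC libraries. Usp29 (chr7:6730578-6967219, plus strand) encodes a ubiquitin-specific protease and is known mainly from brain. The antisense gene Zim3 overlaps it in exons, and reads there cannot be assigned with certainty. Usp29 was listed at a normalized FPK of 0.00184 and 0.00192 in the low-MYC libraries and 0.00359 and 0.00411 in the high-MYC libraries.

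The reads behind these values could be bounded. In genes with a single annotated transcript, low values multiplied by transcript length in kilobases cluster at whole multiples of what 1 read is worth. In a 1 kb transcript, that was 0.00437 and 0.00438 normalized FPK in the low-MYC and 0.00979 and 0.0111 in the high-MYC libraries. Only 36.9% to 39.1% of such low values came out whole (within 0.05 of a read), so counts were not recovered and no count test was run. By this value, Usp29 rested on at most 7.93 reads in any library even at its longest possible length, and Mest on between 7.46 and 109 reads. Zim1 rested on between 4.70 and 163 reads, Peg10 on between 2043 and 2622, and H19 on between 6793 and 29306. The estimates for Usp29 were alike in all libraries, 7.62 and 7.93 reads in low-MYC and 6.62 and 6.70 in high-MYC at the length of all its exons.

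High-MYC and low-MYC cells were compared to ask how the amount of each mRNA per cell differed. On the spike-in scale, 9 of the 10 genes passed the minimum mean, and these 9 were higher in high-MYC cells. The background was that 97.1% of the 11870 genes tested were called higher (limma on log2(normalized FPK + 0.1), genes with a mean of at least 0.1, Benjamini-Hochberg adjusted p under 0.01). Usp29 had a mean under 0.1 and was not tested. Zim1 had a low-MYC mean of 0.0873, under that minimum, and passed through its high-MYC values. With no minimum, Zim1 had the same log2 fold change and a limma adjusted p of 0.00385. At a fold change of at least 2, H19, Dlk1, Peg3 and Grb10 were called, 4 of 9, where 55.1% of all genes tested were called. These shares do not set the genes apart from the rest.

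H19 had the highest log2 fold change of the 9, 1.55 ± 0.05 (SE, n = 2 and 2; limma adjusted p = 1.04e-05), which lay at percentile 98.1 of all genes tested. Zim1 had the lowest, 0.29 ± 0.06 (limma adjusted p = 0.00341), at percentile 0.623. Grb10, Dlk1 and Peg3 had log2 fold changes of 1.24, 1.20 and 1.17. Plagl1, Peg10, Meg3 and Mest had 0.97, 0.93, 0.90 and 0.64. The median over all genes tested was 1.03, and 90% of them lay between 0.59 and 1.35.

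The pseudocount of 0.1 compresses the change of low genes, so the ratio of group means without it is given too. It was 2.94 for H19, 2.61 for Plagl1, 2.43 for Grb10, 2.41 for Dlk1 and 2.34 for Peg3. For Usp29 it was 2.05, for Meg3 2.04, for Mest 2.03, for Peg10 1.96 and for Zim1 1.49. The median over all genes tested was 2.26. Plagl1 was at percentile 86.6 by this ratio and at 38.5 by the log2 fold change, whereas Zim1 was at 0.960 and H19 at 93.9, near the ends of the distribution by both measures.

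**Figure D2:**
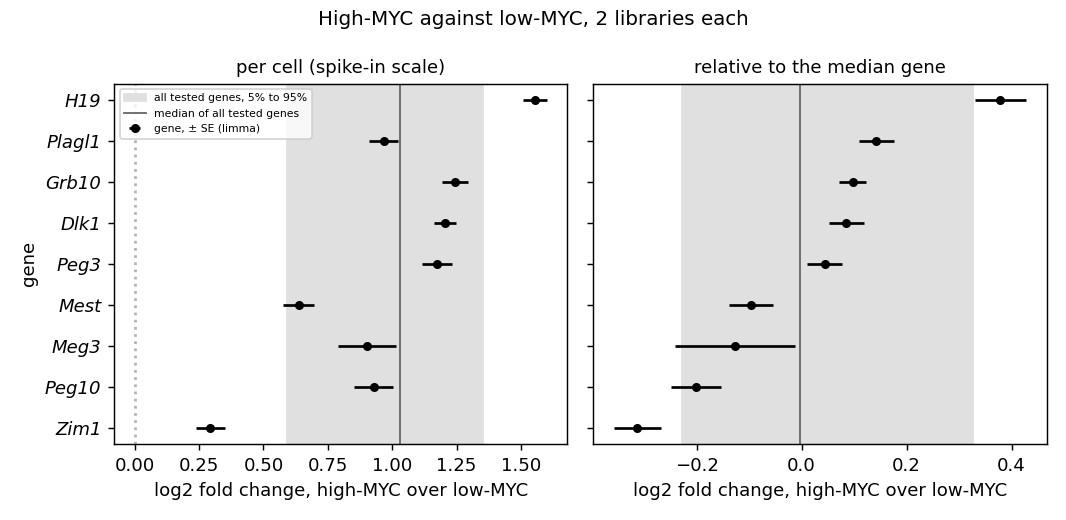
Log2 fold change (high-MYC over low-MYC, ± SE from limma) of the 9 genes tested, on the spike-in scale (left) and relative to the median gene (right). The grey band holds the middle 90% of all 11870 genes tested. H19 lies above the band and Zim1 below it on both scales.

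Since nearly every gene was higher on the spike-in scale, each library was also rescaled to the same median over the genes tested, which asks whether a gene differed from the general shift. On this scale 0 of the 9 genes passed an adjusted p under 0.01 (limma), where 1.76% of all genes were called higher and 0.531% lower. At an unadjusted p under 0.05, 3 of the 9 were higher and 2 lower, where 17.3% of all genes tested were higher and 15.8% lower at that threshold. H19 had a log2 fold change of 0.38 ± 0.05 relative to the median gene (limma adjusted p = 0.0238). Zim1 had -0.31 ± 0.04 (limma adjusted p = 0.0290).

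The other genes lay nearer to the general shift. Peg10 had a log2 fold change relative to the median gene of -0.20 (limma adjusted p = 0.0693), Plagl1 0.14 (adjusted p = 0.0711) and Grb10 0.10 (adjusted p = 0.0885). Dlk1 had 0.09, Peg3 0.04, Mest -0.10 and Meg3 -0.13, with adjusted p between 0.171 and 0.496. Without low-MYC replicate 1, Meg3 was at 0.027 relative to the median gene, on the other side of 0. A p that misses the threshold does not show that a gene followed the general shift.

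Markers of several cell types were compared between the same libraries. The 15 macrophage markers summed to 0.647 and 0.892 normalized FPK in low-MYC and to 28.5 and 30.01 in high-MYC libraries, and 11 of the 15 had a low-MYC mean under 0.01. Most of the high-MYC sums was Lyz2, at 18.0 and 18.9, which was at 0.0305 and 0.142 in the low-MYC libraries. Most of the low-MYC sums was Cd68, at 0.549 and 0.661. The 16 fibroblast markers summed to 453 and 461 in low-MYC and to 1102 and 1138 in high-MYC libraries. Relative to the median gene, 3 of the 16 (Pdgfra, Lum and Fbn1) were called higher, where 1.76% of all genes tested were. Of the 16, 14 lay above the median gene, and Postn was lowest at -0.29 (limma adjusted p = 0.0123), not called. None of the 7 trophoblast markers, 3 of which are in the table, had a mean of 0.1, and their sums were between 0.0492 and 0.214. Relative to the median gene, 2 of 3 tested adipocyte markers were called higher, Fabp4 at 0.99 and Cebpa at 0.44 (limma adjusted p = 0.00489 and 0.00789). Lpl, the remaining one, was at 0.07 and not called. Of 2 tested skeletal muscle markers, Acta1 was called lower at -0.73 (limma adjusted p = 0.00401), where 0.531% of all genes tested were. Des, the other, was at -0.17 and not called. The endothelial, epithelial, neural and chondrocyte markers tested did not pass the adjusted threshold relative to the median gene. The 10 proliferation genes all lay above the median gene, by 0.12 to 0.31 on the log2 scale, with 0 called. In bulk RNA, fewer cells of a type and less RNA per cell cannot be told apart, and the part of these cell types in the values of H19 and the other imprinted genes was not tested.

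Igf2, the paternally expressed growth factor gene that shares enhancers with H19, lies 72.6 kb from it. Igf2 had a normalized FPK of 10.0 and 10.4 in the low-MYC libraries and 26.6 and 28.6 in the high-MYC libraries. Its log2 fold change relative to the median gene was 0.26 (limma adjusted p = 0.0142), below that of H19 in size and likewise not called. H19 over Igf2 was 4.08 and 3.77 in low-MYC and 4.38 and 4.13 in high-MYC libraries, ranges that lay close together. Of the other genes listed for this region, Cdkn1c, an inhibitor of cyclin-dependent kinases, had 0.09 and Lsp1, an actin-binding protein of leukocytes, had 0.38, neither called.

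In the Dlk1-Meg3 region, Rian, a noncoding RNA transcribed from the maternal copy downstream of Meg3, had a normalized FPK of 1.95 and 1.82 in the low-MYC libraries and of 3.99 and 4.50 in the high-MYC libraries, above Meg3 in every library. Mirg, the next noncoding RNA, was lower, with 0.129 and 0.115 in low-MYC and 0.231 and 0.240 in high-MYC libraries. Relative to the median gene, the log2 fold changes of Rian and Mirg were -0.01 and -0.15. Dio3, which encodes the enzyme that inactivates thyroid hormone at the far end of the domain, had 0.77 (limma adjusted p = 0.0398), the highest of the 7 genes tested in this list and not called.

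Near Peg10, Sgce starts 99 bases away on the other strand and is imprinted with it. Peg10 over Sgce was 8.13 and 8.92 in low-MYC and 7.63 and 8.05 in high-MYC libraries. Tfpi2, an inhibitor of serine proteases, was the 1 tested gene of the lists around these loci not called higher on the spike-in scale. Of all genes tested, 97.1% were called higher. The normalized FPK of Tfpi2 was 0.112 and 0.109 in low-MYC and 0.116 and 0.138 in high-MYC libraries. Relative to the median gene, its log2 fold change was -0.53 (limma adjusted p = 0.0111). In these lists, Zfp667, Slc25a29, Evl, Cep41, Pon3 and Dlx5 had low-MYC means under the minimum of 0.1 and passed through their high-MYC values. Mest over Copg2, the overlapping gene, was 0.889 and 0.894 in low-MYC and 0.771 and 0.735 in high-MYC libraries.

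**Figure D3:**
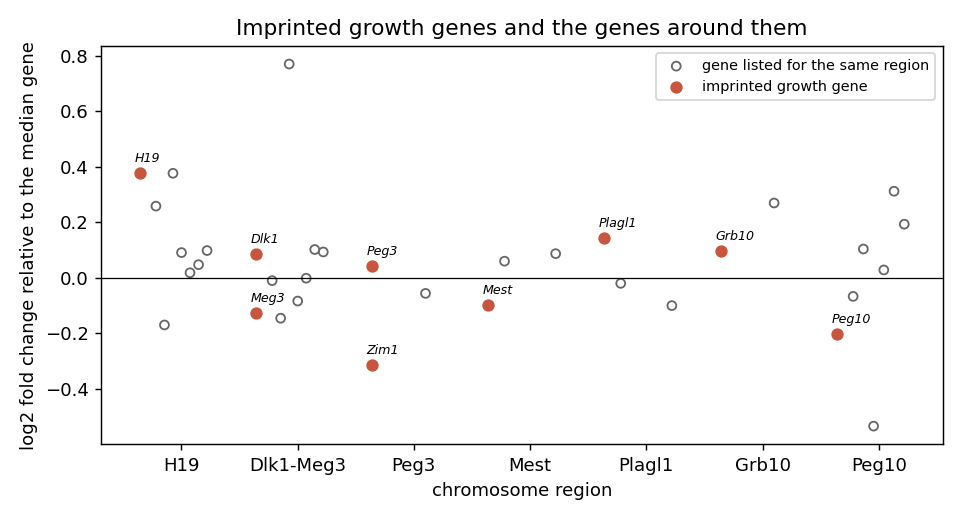
Log2 fold change relative to the median gene of the 9 tested imprinted growth genes (red) and of the tested genes listed for the same chromosome region (open circles). The listed genes lie between -0.53 (Tfpi2) and 0.77 (Dio3), and H19 and Zim1 are the imprinted growth genes farthest from 0.

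Among 46 other imprinted genes, 37 were in the table and 25 were tested. On the spike-in scale 25 of 25 were higher, where 97.1% of all genes tested were. At least 2-fold higher were 12 of the 25, where 55.1% of all genes tested were. Mkrn3 and Gab1 had low-MYC means of 0.083 and 0.064, under the minimum, and passed through their high-MYC values. Relative to the median gene 1 was called higher and 0 lower, where 1.76% of all genes tested were called higher and 0.531% lower. The median log2 fold change of the 25 was 0.01, against -0.00392 over all genes tested. The 1 called was Dcn, which encodes the collagen-binding proteoglycan decorin, at 0.89 (limma adjusted p = 0.00213). Dcn is also one of the partners listed for Plagl1, of which 8 were tested. Nnat, a paternally expressed membrane protein gene, had the lowest value of these partners, -0.38 (limma adjusted p = 0.0156), and was not called.

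The 15 genes of insulin and IGF signalling, the pathway that Grb10 restrains, were all tested. All were higher on the spike-in scale, where 97.1% of all genes tested were. Relative to the median gene 0 were called, where 1.76% of all genes tested were called higher and 0.531% lower. Igf2r, the receptor that clears IGF2, had a relative log2 fold change of 0.08, Igf1r, the signalling receptor, -0.13, and Insr -0.09. Of 11 tested regulators of imprints, 0 were called relative to the median gene. Against those low shares, 0 calls do not set either list apart from the rest. Ctcf, whose product binds the H19 control region, was at -0.02, Yy1 at -0.00102 and Zfp57, whose product protects imprints from loss of methylation, at -0.22.

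Genes whose pattern over the 4 libraries was near to that of H19 included Sdc1 and Mapk13, at distances of 0.0256 and 0.0358 on the log2 scale after the mean of each gene was subtracted, among 5607 genes with a mean of at least 1. For Zim1 they were Dusp4, Mcam and Nr4a1, at 0.0823, 0.129 and 0.134. The pseudocount flattens the pattern of Zim1 more than that of these genes, since its level is lower.

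TACh-seq reads were counted within 1 kb of each gene start, by the midpoint of the read. The table holds 4881417 reads in limited regions, so 0 says only that no listed read lay there. Of the 10 genes, 5 had reads at the gene start: Peg3 159, Usp29 122, Zim1 96, Meg3 69 and Peg10 51. H19, Dlk1, Mest, Plagl1 and Grb10 had 0. Over all genes of the table the median was 90 reads and 39.8% had 0, and over the genes tested for RNA the median was 127 and 23.3% had 0.

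For Mest and Plagl1 the reads lay at an internal start. Mest had 106 reads at an annotated transcript start 14508 bases downstream of the gene start, and Plagl1 had 106 at a start 30187 bases downstream. Grb10 had 48 reads at the start, 100067 bases downstream, of a transcript not annotated as protein-coding. The annotated starts of protein-coding Grb10 transcripts all had 0, as did the RefSeq starts at positions 12027971 and 12037420. With the annotated start that had the most reads, 8 of the 10 genes had reads, and 19.6% of the genes tested had none. Taking the highest of several starts raises the count of genes with many annotated starts, of which Plagl1 has 25 transcripts and Peg10 3.

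H19 and Dlk1 had 0 reads at every annotated start, 7 for H19 and 9 for Dlk1. The nearest read lay 44352 bases from the H19 start and 14233 bases from the Dlk1 start. There were also 0 reads within 250 bases of each of the 3 CTCF cores printed above. Of 185 other genes whose mean level was within 2-fold of that of H19, 43 (23.2%) had 0 reads at the gene start, and their median was 151. Of 3460 genes near the level of Dlk1, 15.1% had 0. Usp29, the lowest of the 10, had 122 reads at its start, whereas 71.5% of 1462 genes near its level had 0. Of these 122 reads, 103 lay upstream of Usp29, toward Peg3, and 19 downstream, and the windows of both genes overlap, so most were counted for Peg3 too.

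**Figure D4:**
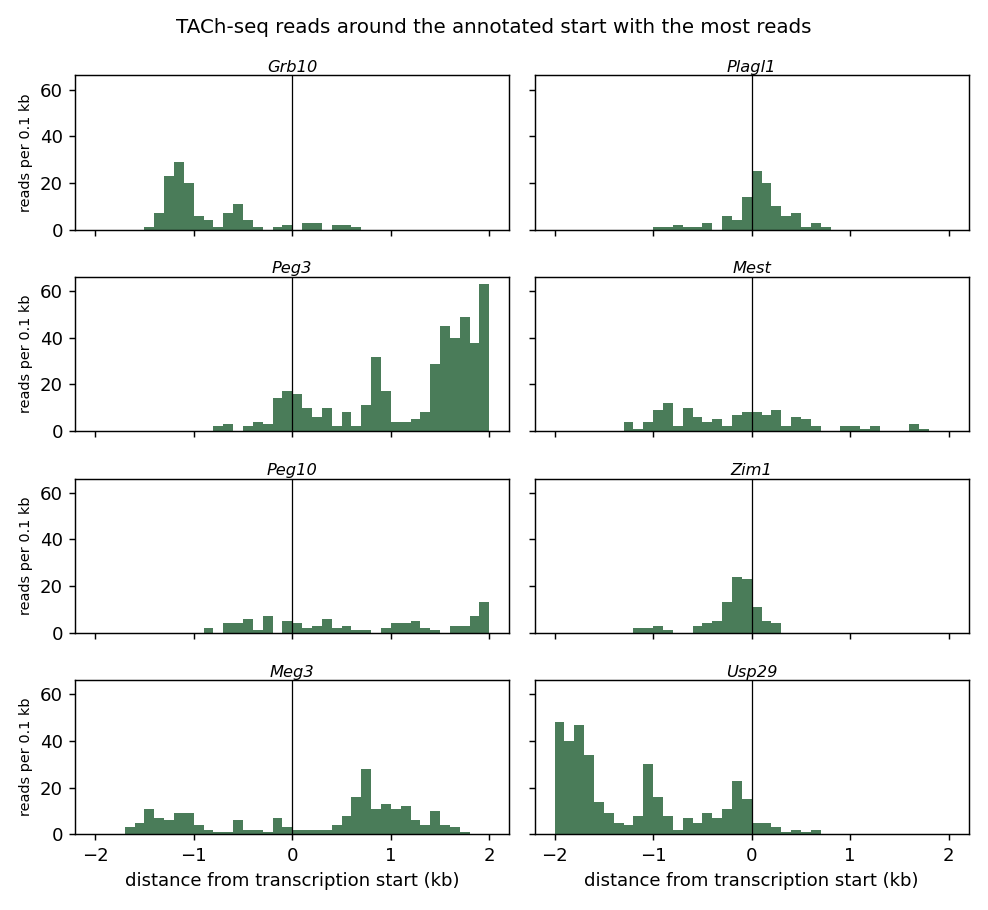
TACh-seq reads per 0.1 kb by distance from the annotated start that had the most reads, for the 8 genes with reads within 1 kb. Positive distances are in the direction of transcription. The highest bins within 1 kb hold 32 reads for Peg3, 28 for Meg3, 25 for Plagl1 and 24 for Zim1.

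The shared start region of Peg3 and Usp29 held the largest run of reads among these genes. A run of reads with no gap over 600 bases, chr7:6726401-6731222, contained 853 reads, 177 per kilobase. It was at percentile 99.5 of the 26138 such runs of the table, whose median was 143 reads. The highest 100-base bin, with 63 reads, lay 1900 to 2000 bases inside Peg3 and not at either start. The 10 YY1 cores lay between 842 and 3130 bases inside Peg3, a stretch of 2297 bases with 714 reads, 83.7% of the run. Counts within 250 bases of a core were from 53 to 252 reads, and these windows overlap. The 2 further matches in the 20 kb window, on the minus strand, had 0. The reads do not show which protein was bound.

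**Figure D5:**
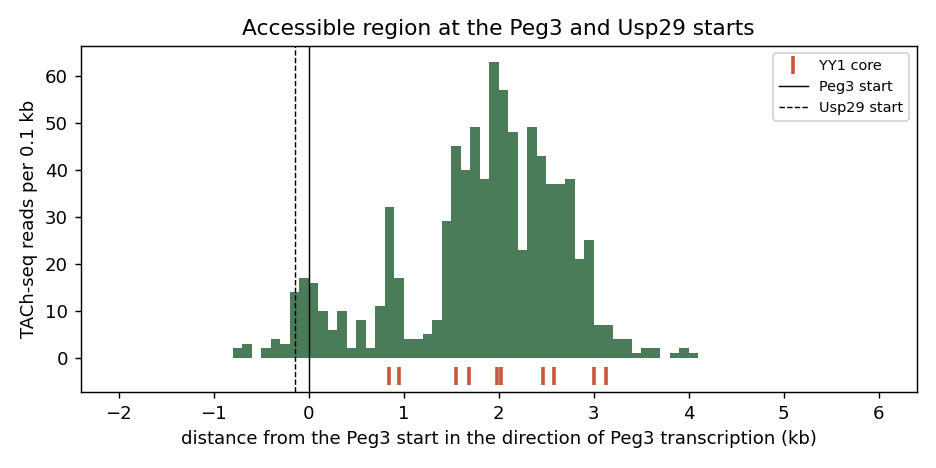
TACh-seq reads per 0.1 kb by distance from the Peg3 start, with the 10 YY1 cores as red marks and the Usp29 start as a dashed line. The highest bin, 63 reads, lies inside Peg3 among the cores.

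The other runs were smaller. Zim1 had 100 reads in chr7:6696173-6697625, Meg3 218 in chr12:109540611-109543988, Mest 124 in chr6:30736764-30739849, Plagl1 106 in chr10:13089779-13091448 and Peg10 110 in chr6:4746582-4749785. Grb10 had a run of 417 reads over 13614 bases in its body, 73902 bases from its start at the nearest edge. Upstream of Dlk1 there were runs of 112, 352, 90 and 111 reads and a farther one of 5, of which the one with 352 lay 33722 bases from the start.

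RefSeq promoters of 300 bases were found for 8 of the 10 genes, in 12 windows; H19 and Peg10 had no entry. The E-box CACGTG, the sequence that MYC prefers, was present in 1 of the 12, that of Plagl1, and in 7.15% of 32851 promoters. One Grb10 promoter had the highest GC content, 80.0%, with a CpG observed-to-expected ratio of 0.973 and 0 reads within 1 kb of its start. A Meg3 promoter whose start lies 4397 bases inside the gene had the lowest ratio, 0.0588. The medians over all promoters were 52.7% GC and a ratio of 0.384.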

How the data were processed

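The 4 RNA libraries (low-MYC and high-MYC MEFs) and the single table that the 4 TACh-seq samples name were used; its name refers to a wild-type sample, and which libraries it holds is not known. Per the labels and methods, the authors trimmed RNA reads, used TopHat to align them to mouse transcripts of mm10, quantified them in Partek and divided by length and by an ERCC spike-in score; the deposited values are this signal (normalized FPK), from which low genes carry few reads. TACh-seq reads were aligned with Bowtie2, and the deposited table gives positions and a mapping score per read. FUBP1 peaks were not used, since the list covers chromosome 15 only and none of these genes lies there. No value column was left unassigned.

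Log2(normalized FPK + 0.1) was compared with limma 3.58.1 (lmFit, eBayes with trend) under R 4.3.3. A mean of 0.1 over the 4 libraries was the minimum, with Benjamini-Hochberg adjustment over all genes tested, before and after rescaling each library to the same median. The fit was tested on simulated data. The genes, lists and tests were chosen with earlier results of these data known. All 10 genes are named, with members of the lists in the same region, called relative to the median gene or highest; other list members are examples chosen after their values were seen. Positions and transcripts are those of GENCODE M21, and sequences those of RefSeq and GRCm38. Library depth was not used; intervals of TACh-seq counts cover counting error only. For H19 and Zim1, the 3 genes of nearest pattern were named, of which 1 is not reported here. Zinc-finger repeats in the proteins are not analysed here. Alternatives covered the pseudocount, minimum mean, trend, scaling, replicate block, threshold, each library and the TACh-seq window, mapping score and start. Python 3.11.15 with pandas 2.3.3, numpy 2.4.6, scipy 1.17.1, matplotlib 3.10.9 and samtools were used.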

Additional observations from a re-analysis of the deposited data

How the results depend on the processing

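On the spike-in scale 9 of the genes were higher under every alternative that tested them, except Zim1 without low-MYC replicate 1 or 2 (limma adjusted p = 0.0465 and 0.0409), where 8 were; only 5 passed a minimum mean of 1, and all 5 were called, and 4 were called at 2-fold or more. Over all genes, 5596 were higher at a minimum mean of 1 and 6540 at 2-fold or more. The 3 genes lower became 8 with no filter, and 7 with a pseudocount of 0.001 together with a minimum mean of 0.005. They became 5 with the replicate block, 5 at an adjusted p under 0.05 and 0 at 2-fold or more.

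Relative to the median gene, 209 genes were higher and 63 lower. These became 318 and 213 at a minimum mean of 1, 59 and 6 with no filter, 72 and 10 with a pseudocount of 0.001, 928 and 602 at an adjusted p under 0.05, and 0 to 98 and 0 to 15 when a library was left out. The lone library was then assumed to vary like the other group; without high-MYC replicate 1 or 2 there were 0 calls (limma), against 1537 and 1915 genes higher and 1428 and 1566 lower at an unadjusted p under 0.05. Of the imprinted growth genes, H19 was called at a minimum mean of 1 (adjusted p = 0.00161), and 1 was higher (H19) and 1 lower (Zim1) at an adjusted p under 0.05. The log2 fold change of H19 was 0.34 to 0.43 over its 15 alternatives (adjusted p 0.00161 to 0.0826) and that of Zim1 -0.63 to -0.06 over 14 (adjusted p 0.0195 to 0.127). Meg3, at -0.13, ranged from -0.27 to 0.027 when a library was left out, reversing without low-MYC replicate 1. The cause was not tested.

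Groups share replicate numbers 1 and 2, but the deviations of same-numbered libraries from their group means correlated only at r = 0.081 across genes, so the numbers were taken as names only. With the replicate block, 0 genes were called relative to the median gene (limma), 2364 higher and 2253 lower at an unadjusted p under 0.05, and 9 of the imprinted growth genes stayed called on the spike-in scale. TACh-seq reads were present at 5 gene starts with windows of 500 bases and 2 kb, distinct positions or a mapping score of at least 30, and at 8 with the best annotated start. Few reads limit Usp29, Mest and Zim1.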
